A study of Mus musculus with 8 samples.

Results

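Cathepsins are the proteases that break down proteins in the acidic interior of the lysosome. The 10 cathepsin genes followed here were Ctsl, Ctsb, Ctsc, Ctsf, Ctsh, Ctsk, Ctss and Ctsz, which encode cysteine proteases, Ctsd, which encodes an aspartic protease, and Ctsa, which encodes a serine carboxypeptidase. They are represented by 22 of the 45037 non-control probe sets of the array, each with exactly 1 gene symbol in the platform annotation. The family was chosen from an earlier result on these same arrays, the lower Ctsl signal in milrinone samples, so the differences between the groups are given below as a description and support nothing further. The tested samples were 4 of mouse germinal vesicle (GV) oocytes, immature oocytes with an intact nucleus, that had spent 48 h in culture with milrinone. The other 4 were GV oocytes that had received no treatment. All 8 were total RNA, and 15 µg of biotin-labelled cRNA went onto each single-colour Affymetrix array. An intensity therefore reports a transcript's share of the labelled cRNA of its sample. The labels give no strain, age, pooling or number of animals, and no group cultured without the drug. Milrinone, the culture and the elapsed time therefore cannot be told apart, and the spread between samples may be technical.

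Cathepsins are made as inactive precursors in the secretory pathway, tagged with mannose 6-phosphate in the Golgi and carried by receptors to the endosome and lysosome, where acid pH and other proteases remove the propeptide. Cystatins bind and block the cysteine cathepsins that escape. In the ovary, Ctsl is known as a gene that granulosa cells switch on around ovulation, downstream of the progesterone receptor, and Ctss is best known from macrophages and other cells that present antigen. Milrinone blocks the phosphodiesterase PDE3A of the oocyte and so holds it at the GV stage.

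Each probe set has 1 deposited intensity per array on a linear scale, or an empty cell. Listed means here that a probe set has such a value, and the signal behind an empty cell is unknown, without an upper bound. The 8 arrays listed between 18572 and 23237 of the 45037 probe sets. Untreated 1 listed the most and stood apart: its correlations with the remaining arrays had a median of 0.930 over the 14391 probe sets listed on all 8, while the same median was between 0.966 and 0.980 for each of the others. For the Actb control probe sets, the 3′ signal over the 5′ signal, a sign of RNA integrity, ran from 11.6 to 20.4 on the milrinone arrays and from 6.87 to 13.1 on the untreated arrays, and that of Gapdh from 6.09 to 8.25 and from 6.23 to 7.68. The part of these ratios in the values below was not tested.

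Among the 5 cathepsin genes with enough values in both groups to be compared, Ctsl, which was chosen for this difference, had the groups farthest apart. Ctsl encodes cathepsin L, a lysosomal endopeptidase that is also secreted. Its probe set 1451310_a_at had intensities of 115, 118, 62.2 and 85.9 on milrinone arrays 1 to 4, against 5270.2, 1555, 1075 and 762 on untreated arrays 1 to 4. Every milrinone value lay below every untreated value, and the lowest untreated value was on array 4. The means were 95.3 ± 26.4 in milrinone and 2165 ± 2095 in untreated samples (SD, n = 4 each), and the large untreated SD came with untreated 1 at 4.66 times the mean of the other 3. On the log2(intensity + 16) scale, where 16 is added to steady dim signals and the change of dim probe sets is understated, Ctsl differed by -3.90 (SE 0.49, 95% interval -5.00 to -2.81) in milrinone minus untreated. Without untreated 1 the untreated mean was 1130.5 ± 399 (SD, n = 3) and the difference was -3.34 (SE 0.27, 95% interval -3.94 to -2.73). The other Ctsl probe set, 1457724_at, was empty on all 8 arrays and gives no second measurement.

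**Figure D1:**
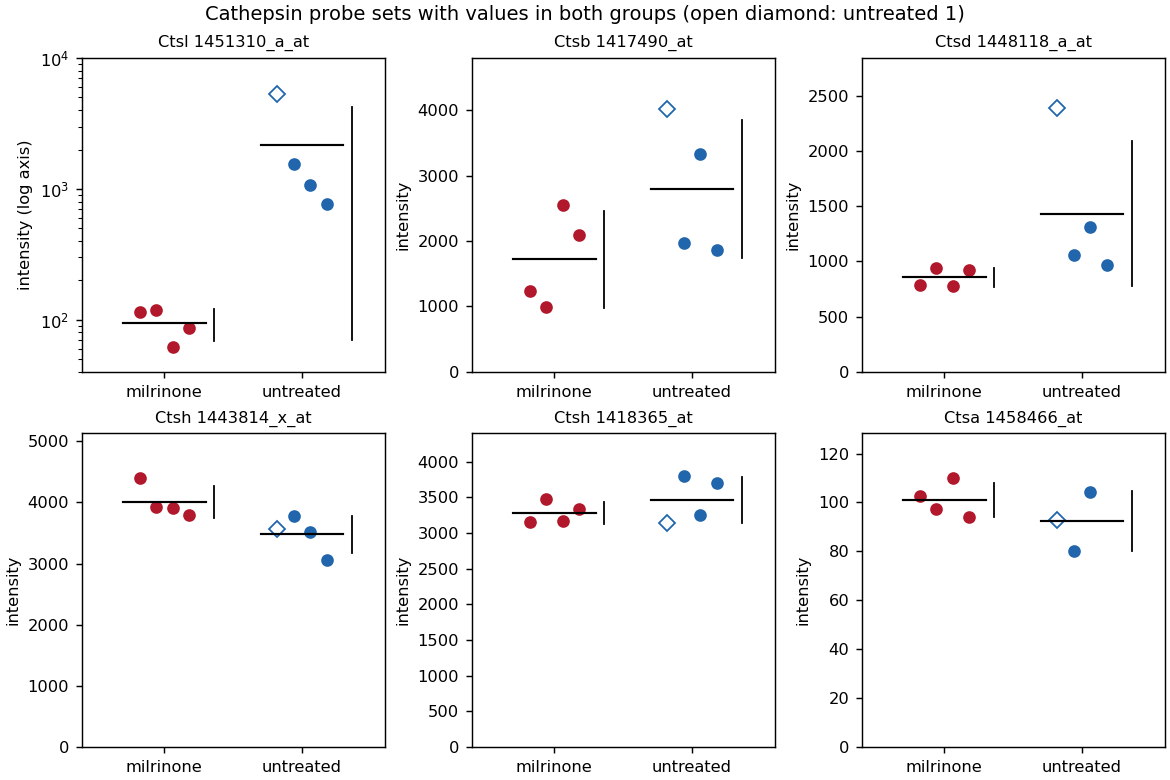
Intensity of the 6 cathepsin probe sets with values on at least 3 arrays of each group, by array, with milrinone left of untreated; horizontal lines are means, vertical lines are mean ± SD, the open diamond is untreated 1, and the Ctsl axis is logarithmic while the others start at 0. The Ctsl groups are widely separate, with milrinone between 62.2 and 118 and untreated between 762 and 5270.2, whereas the Ctsh groups lie close together.

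Ctsh, which encodes an aminopeptidase of the papain family, was bright on all 8 arrays, and its groups lay close together. Probe set 1418365_at had 3146, 3475, 3171 and 3331 in milrinone samples, against 3133, 3790.5, 3248 and 3692 in untreated samples. These values overlapped throughout, with means of 3281 ± 153 and 3466 ± 324 (SD, n = 4 each) and a log2 difference of -0.08 (95% interval -0.29 to 0.14). Probe set 1443814_x_at, whose name marks probes that may also bind other transcripts, had 4397, 3931, 3910.5 and 3794 in milrinone samples, against 3567, 3773, 3513 and 3059.8 in untreated samples. All 4 milrinone values lay above the untreated ones, by a narrow margin, and the log2 difference was 0.21 (95% interval -0.01 to 0.42). The pair of Ctsh probe sets thus differed in sign, and neither difference was called by the fit across all probe sets. Without untreated 1 they were -0.12 and 0.22.

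Ctsb encodes cathepsin B, which cuts within proteins and also removes dipeptides from their ends. Its main probe set, 1417490_at, had 1231, 988, 2559 and 2097 in milrinone samples, against 4021, 1966, 3325 and 1858 in untreated samples. The groups overlapped, since milrinone 3 and 4 lay above untreated 2 and 4. The means were 1719 ± 735 and 2793 ± 1057 (SD, n = 4 each), and the log2 difference was -0.72 (95% interval -1.45 to 0.02), or -0.52 (-1.27 to 0.23) without untreated 1. A second Ctsb probe set, 1448732_at, was listed at 241 and 258 on milrinone 3 and 4, the same arrays on which the main one was high, and at 352, 223, 453 and 295 on the untreated arrays. Of the remaining Ctsb probe sets 1 was listed on untreated 1 and 2 at 149 and 55.8, 1 on untreated 1 at 119, and 1 on no array. The array pattern of Ctsb was shared by Cst3, which encodes cystatin C, a secreted inhibitor of cysteine cathepsins. Cst3 had 1591, 1296, 2378 and 2455 in milrinone samples, against 2999, 2404, 2429 and 1701 in untreated samples, so that it too was lower on milrinone 1 and 2 than on milrinone 3 and 4. Over the 8 arrays its Pearson r with Ctsb was 0.91 on the log2 scale, at rank 6 of 13305 probe sets, a pairing that was picked after its values were seen.

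Ctsd encodes cathepsin D, the aspartic endopeptidase of the lysosome. Its probe set 1448118_a_at had 789, 943, 779.6 and 922 in milrinone samples, against 2389, 1061, 1314 and 967 in untreated samples. All milrinone values lay below the untreated ones, but milrinone 2 and untreated 4 were nearly equal. The means were 858 ± 86.1 and 1433 ± 654 (SD, n = 4 each). The log2 difference of Ctsd was -0.64 (95% interval -1.19 to -0.08), and -0.36 (-0.69 to -0.03) without untreated 1.

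Ctsa encodes the carboxypeptidase also called protective protein, which holds neuraminidase and beta-galactosidase in a complex in the lysosome. Its probe sets did not behave alike. Probe set 1448128_at was listed on 1 milrinone array, at 72.9, and on all 4 untreated arrays, at 420.3, 149, 172 and 118. Probe set 1458466_at had 103, 97.2, 110.1 and 94.1 in milrinone samples, against 92.8, 80.0 and 104 on untreated 1 to 3 and an empty cell on untreated 4. The fit of the second leaves out untreated 4. Its groups overlapped and the log2 difference was 0.11 (95% interval -0.22 to 0.45), a sign that turned to -0.17 with quantile normalization. The first had too few milrinone values for a difference.

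Ctsc and Ctsz were listed almost solely on untreated arrays. Ctsc encodes dipeptidyl peptidase I, which activates the serine proteases of immune cells. Its main probe set, 1416382_at, was empty on all 4 milrinone arrays and had 302, 47.6, 69.7 and 59.8 on untreated 1 to 4. The other Ctsc probe sets were listed only on untreated 1 and 2, between 11.2 and 12.7. Ctsz encodes cathepsin Z, a carboxypeptidase. Its probe set 1417868_a_at was listed on milrinone 4 at 37.0, and on untreated 1 to 4 at 359, 117, 96.2 and 59.6. The other pair of Ctsz probe sets had 257 and 259 on untreated 1, and from 62.1 to 88.7 on untreated 2 and 3, with no value elsewhere. The 3 Ctsz probe sets put the arrays in the same order, with untreated 1 highest, but they measure 1 gene in the same samples.

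Ctss, Ctsf and Ctsk were rarely or never listed. Ctss, which encodes the cathepsin that trims the invariant chain of MHC class II molecules, had 67.7 on untreated 1 and 228 on untreated 3, and no other value. Lyz2, a lysozyme gene of macrophages, was also highest on untreated 3, with 216, 157, 740.4 and 165 on untreated 1 to 4 and no value in milrinone. The tested macrophage markers did not share 1 order. Adgre1 was highest on untreated 3 (120), Csf1r on untreated 1 (434, against 414 on untreated 3) and Cd68 on untreated 4 (135, against 86.7 on untreated 3). Ctsf had 159 on untreated 1 and was otherwise empty in both of its probe sets. Ctsk, known as the collagen-degrading protease of osteoclasts, was empty on all 8 arrays.

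**Figure D2:**
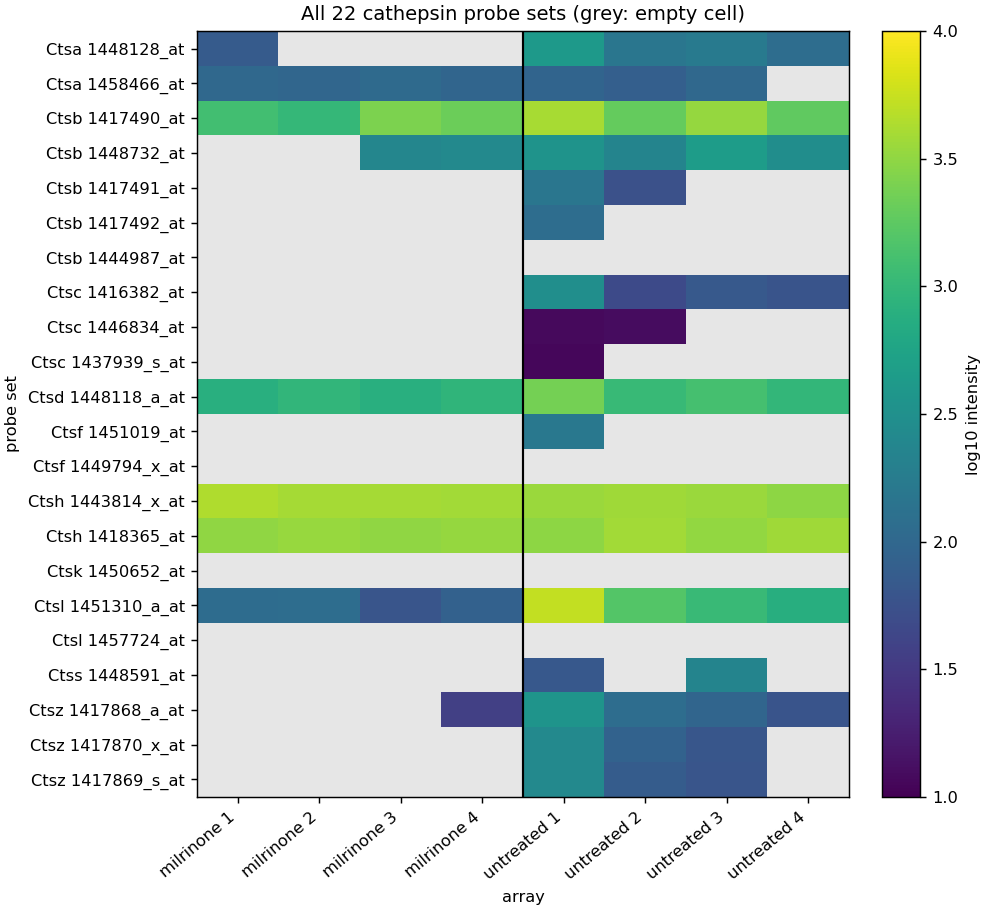
Every cathepsin probe set (rows) on every array (columns, milrinone left of the line and untreated right of it), coloured by log10 intensity, with empty cells in grey. Untreated 1 has values for 18 of the 22 probe sets and milrinone 2 for 6, and Ctsh keeps nearly the same colour on all arrays.

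Counted over the family, values were fewer on the milrinone arrays. Of the 22 probe sets, 7, 6, 7 and 8 were listed on milrinone 1 to 4, against 18, 14, 13 and 9 on untreated 1 to 4. As a share of the family this was 27.3% to 36.4% in milrinone and 40.9% to 81.8% in untreated samples, whereas over all probe sets the shares were 41.2% to 43.1% and 41.9% to 51.6%. Probe sets of Ctsa, Ctsc and Ctsz, 3 of the 22, had values on every untreated array and on no more than 1 milrinone array, beside 1.02% of all probe sets. The converse, values on every milrinone array and on no more than 1 untreated array, held for 0 of the 22 and for 59 of all 45037. In total 18 probe sets of 9 genes were listed on at least 1 array, and 6 probe sets of 5 genes reached the minimum of 3 listed arrays per group and entered the fit. These 6 passed that filter because they were measured on both sides, so they do not stand for all members.

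In the limma fit over 16288 probe sets, 1 of the 6 cathepsin probe sets was called at an adjusted p under 0.05, that of Ctsl (lower, adjusted p = 0.0129), beside 0.117% of all tested probe sets. Since Ctsl was chosen on this contrast, nothing is read from that count. Among the other 5 probe sets 0 were called by limma, and 1, that of Ctsd, had an unadjusted p under 0.05 (limma adjusted p = 0.494), as did 1568 of all 16288. Without untreated 1 the fit again called 1 of the 6, Ctsl (adjusted p = 0.00118), beside 0.424% of all tested probe sets. The Ctsl call was lost without untreated 2 (-3.92, adjusted p = 0.0542), without milrinone 1 (-3.99, adjusted p = 0.0523), without milrinone 3 (-3.75, adjusted p = 0.0676) and without milrinone 4 (-3.87, adjusted p = 0.0504), and also with empty cells set to 0 (adjusted p = 0.0680), while its difference stayed between -4.26 and -3.34 under all 18 alternatives. All milrinone values lay below all untreated values for 2 of the 6, Ctsl and Ctsd, beside 2.74% of all tested probe sets. They lay above for 1 of the 6, a Ctsh probe set, beside 5.06%. Nothing is read from the first of these counts either. Ctsl was chosen on this contrast, and for Ctsd milrinone 2 (943) and untreated 4 (967) were nearly equal.

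**Figure D3:**
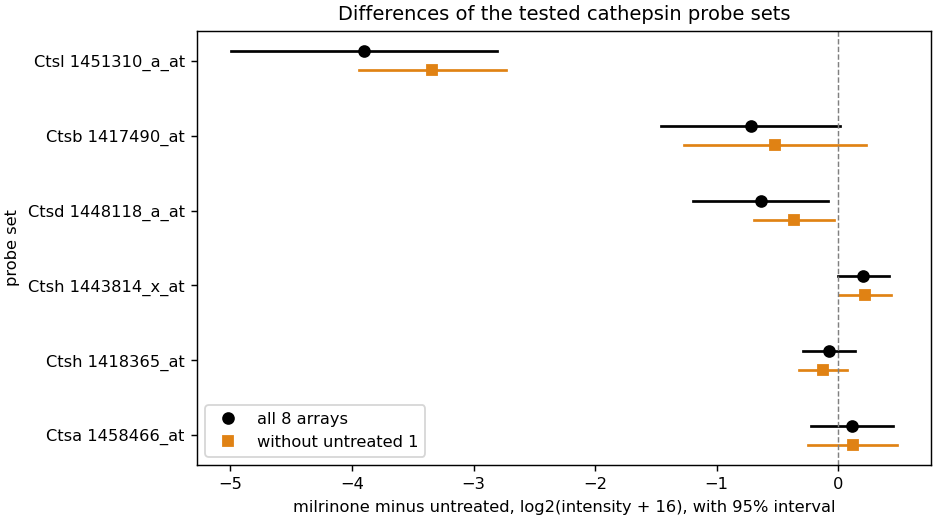
Difference of each tested cathepsin probe set, milrinone minus untreated on the log2(intensity + 16) scale, with 95% intervals from the limma fit, over all 8 arrays (circles) and without untreated 1 (squares). Ctsl lies at -3.90 and -3.34, and the other 5 lie between -0.72 and 0.22.

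The untreated arrays also differed among themselves. For the 9 cathepsin probe sets listed on all 4 of them, the signal on untreated 1 was divided by the mean of untreated 2 to 4, a ratio that does not use the milrinone arrays but was looked at after the values were seen. It was 5.11 for Ctsc, 4.66 for Ctsl, 3.95 for Ctsz, 2.87 for Ctsa, 2.14 for Ctsd, 1.69 and 1.09 for Ctsb, and 1.03 and 0.876 for Ctsh. The median was 2.14 over these 9 and 0.894 over all 15931 probe sets listed on all 4 untreated arrays. The ratio was above 2 for 5 of the 9, and for 7.55% of all. Granulosa and cumulus marker probe sets had a median of 4.42 over 22, stromal and endothelial ones 4.41 over 6, macrophage and blood ones 0.992 over 5 and oocyte ones 0.891 over 16. The 6 stromal and endothelial ratios ran from 0.960 to 10.5, and 4 were above 2. Of endothelial genes, Tek had 145, 160, 193 and 101 on untreated 1 to 4, and Kdr 555, 404, 391 and 500. The median was 2.34 over 4 probe sets of cathepsin inhibitors and 1.43 over 31 of other lysosomal enzymes. With 1 array on top and no test, these ratios describe that array only.

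**Figure D4:**
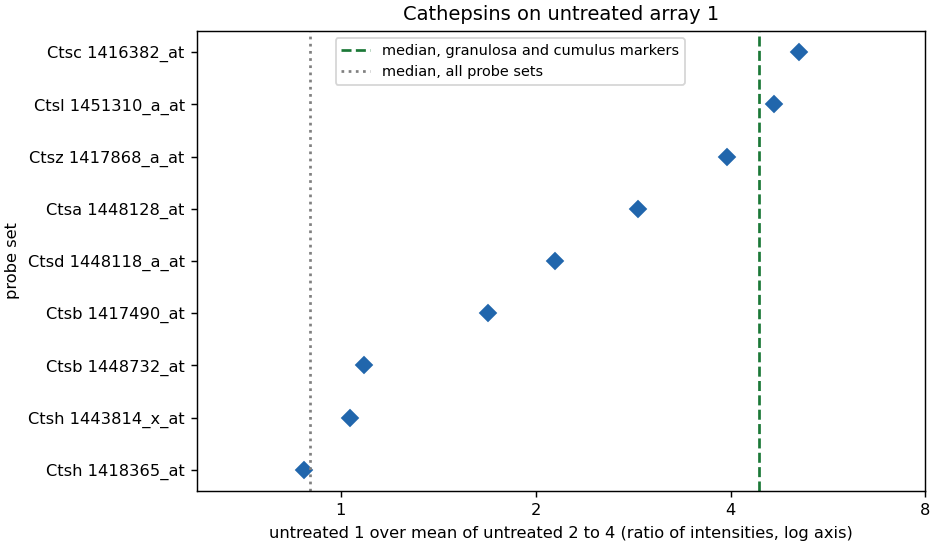
Ratio of the intensity on untreated 1 to the mean of untreated 2 to 4 (log axis) for the 9 cathepsin probe sets listed on all 4 untreated arrays. Vertical lines are the medians of granulosa and cumulus marker probe sets (4.42) and of all probe sets (0.894), with Ctsc and Ctsl near the first and Ctsh near the second.

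Promoter windows were examined because CACGTG is the core of the element through which the lysosomal regulator TFEB acts. RefSeq windows (GRCm38.p6, 250 bases before to 50 after an annotated start) were available for 8 of the 10 genes, with 9 windows in all. Ctsl differed most between the groups among the tested members, and Ctsc was highest on untreated 1 relative to the other untreated arrays. The windows of Ctsl, Ctsd and Ctsc, in this order, are shown 5′ to 3′ with CACGTG in capitals. They lie at chr13:64370471-64370770 (minus strand), chr7:142387778-142388077 (minus strand) and chr7:88277835-88278134 (plus strand).
Ctsl: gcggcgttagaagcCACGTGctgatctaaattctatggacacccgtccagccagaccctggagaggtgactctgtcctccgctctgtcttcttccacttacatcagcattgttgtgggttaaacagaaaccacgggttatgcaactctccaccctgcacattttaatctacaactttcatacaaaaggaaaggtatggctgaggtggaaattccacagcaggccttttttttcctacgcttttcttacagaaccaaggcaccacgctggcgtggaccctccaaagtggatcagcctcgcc
Ctsd: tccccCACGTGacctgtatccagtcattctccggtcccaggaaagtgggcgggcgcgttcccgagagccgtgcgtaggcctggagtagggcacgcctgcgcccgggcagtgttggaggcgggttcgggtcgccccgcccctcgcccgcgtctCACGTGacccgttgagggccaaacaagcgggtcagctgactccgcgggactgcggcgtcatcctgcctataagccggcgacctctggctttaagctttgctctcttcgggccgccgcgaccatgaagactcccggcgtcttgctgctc
Ctsc: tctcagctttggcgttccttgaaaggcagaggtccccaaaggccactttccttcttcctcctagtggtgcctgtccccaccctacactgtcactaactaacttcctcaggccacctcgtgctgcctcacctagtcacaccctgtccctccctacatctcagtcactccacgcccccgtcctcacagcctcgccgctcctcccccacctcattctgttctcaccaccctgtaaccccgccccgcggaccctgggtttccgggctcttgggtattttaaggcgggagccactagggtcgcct
The motif, which reads the same on both strands, began 236 bases before the start in Ctsl, 245 and 98 bases before it in Ctsd, and was not in the Ctsc window. It was also in the Ctsf window and in 1 of the pair of Ctsa windows, so that 4 of 8 genes and 4 of 9 windows held it, against 8.09% of the 27025 genes and 7.15% of the 32851 windows of the table. On untreated 1 the ratio to the other untreated arrays was 4.66 for Ctsl, 2.87 for Ctsa and 2.14 for Ctsd, which held the motif. It was 5.11 for Ctsc and 3.95 for Ctsz, which did not. Ctsb and Ctsh had no window, and Ctsf, Ctsk and Ctss had no such ratio. Whether the motif bears on these values was not tested. A match is a run of letters and no evidence of binding.

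The rest of the cathepsin pathway was taken from lists. Among the 13 other cathepsin genes 4 were listed on any array. The brighter Ctso probe set had 13.7 and 16.2 on milrinone 2 and 3, against 320.2, 28.0, 54.8 and 26.0 on untreated 1 to 4, and Ctse, an aspartic protease, had 81.7 ± 15.9 (SD, n = 4) in milrinone and 69.2 ± 3.18 (SD, n = 3) in untreated samples and was not called (limma, adjusted p = 0.691). Among 12 inhibitor genes on the array 2 were tested, and neither Cst3 (-0.32, limma adjusted p = 0.623) nor Cstb, the cytosolic inhibitor stefin B (-0.13, limma adjusted p = 0.883), was called. Cstb had 1557, 1571, 1501 and 1528 in milrinone samples, against 3447, 1368, 1413 and 1203 in untreated samples, with untreated 1 alone above the milrinone arrays. Without untreated 1 the sign for Cstb turned to 0.21, and Cst3 was at -0.20. The cystatin gene Cst12 was listed on untreated arrays alone, at 1490.4, 185, 292 and 144.

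Of 24 tested genes for other lysosomal enzymes and their activators 0 were called in the limma fit, 6 had an unadjusted p under 0.05, and the median log2 difference was -0.19. Over all 9454 tested genes 12 were called, 931 had an unadjusted p under 0.05, and the median was 0.07. Gm2a, which encodes a lysosomal activator protein that binds lipids, had 131, 203, 147 and 128 in milrinone samples, against 4909, 718, 1073 and 595 in untreated samples. As for Ctsl, its groups did not overlap and untreated 1 was far above the rest. Gm2a differed by -2.91 (SE 0.54, limma adjusted p = 0.121), and by -2.25 (SE 0.23, limma adjusted p = 0.003285) without untreated 1, when it fell and was the 1 gene of this list to be called. Psap, the precursor of the saposins, differed by -0.91 (limma adjusted p = 0.469) and Naglu, which acts on heparan sulfate, by -0.83 (limma adjusted p = 0.480), and both were highest on untreated 1. Without untreated 1, Psap was at -0.57 and Naglu at -0.48.

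The lists for delivery, acidification and control of lysosomes had 0 called genes in the limma fit, with and without untreated 1. They held 12 tested sorting genes (median 0.04), 22 genes of the lysosomal membrane and proton pump (median -0.04), 12 regulators of lysosome genes (median 0.11) and 14 autophagy genes (median -0.0019), and at an unadjusted p under 0.05 they had 1, 1, 1 and 0 genes, beside the 931 of 9454 over all tested genes. Scarb2, a lysosomal membrane protein that acts as a sorting receptor, differed by -1.35 with milrinone 4 empty (limma adjusted p = 0.460), Igf2r, a mannose 6-phosphate receptor, by -0.36 (limma adjusted p = 0.540) and Ap1g1, of the clathrin adaptor AP-1, by 0.22 (limma adjusted p = 0.540). Lamp2, a lysosomal membrane protein, had 845, 999.6, 939 and 863 in milrinone samples, against 2427, 1039, 1176 and 1047 in untreated samples (-0.54, limma adjusted p = 0.514, and -0.25 without untreated 1). Ostm1, a partner of the lysosomal chloride channel, differed by -0.99 over 3 arrays a group (limma adjusted p = 0.480) and Atp6ap2, an accessory protein of the proton pump, by -0.28 (limma adjusted p = 0.516). Among regulators Rptor, of the mTOR complex that restrains TFEB, had 148, 142, 151 and 131 in milrinone samples, against 101, 107, 89.3 and 95.8 in untreated samples (0.48, limma adjusted p = 0.412). Lamtor5 differed by 0.19 and Flcn by 0.26 (0.14 without untreated 1). Of the autophagy genes Sqstm1, a receptor for cargo, differed by -0.73 (-0.24 without untreated 1), Atg7 by 0.27 and Atg16l1 by -0.21.

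Markers of other cell types of the ovary were counted on the same arrays. Granulosa and cumulus markers were listed with 11 to 19 of 47 probe sets on the milrinone arrays and 24 to 36 on the untreated arrays, and their summed intensity over listed cells was 2861 to 4005 in milrinone and 22181 to 96857 in untreated samples, with untreated 1 highest. In bulk samples fewer cells of a type and less RNA per cell cannot be told apart. Among them Gja1, the gap junction protein of these cells, fell by 4.91 on the log2 scale (limma adjusted p = 0.0109) and Grem1, a BMP antagonist made by cumulus cells, fell by 4.67 (limma adjusted p = 0.00482), the 2 genes called of 7 tested. Over all 9454 tested genes 12 were called. The median over the 7 was -1.86 and they ran from -4.91 to 0.29, so that 1 of the 7 lay above 0. Without untreated 1, 4 of the 7 were called lower, beside 54 called lower of all 9454. Ptgs2, of prostaglandin synthesis, was listed on 3 milrinone arrays and 1 untreated array. Hsd17b1, of estrogen synthesis, differed by -2.48 (limma adjusted p = 0.456), or -1.70 (limma adjusted p = 0.0488) without untreated 1. The Grem1 fit lacks milrinone 4 and the Hsd17b1 fit milrinone 3, which were empty. Hsd3b1 had 224 and 165 on the pair of milrinone arrays that listed it, against 15428, 3688, 4335 and 2116 on the untreated arrays, and Inha had 106 and 289 on such a pair, against values between 1698 and 8512. Of 22 genes on the array, 6 had no value in milrinone, and 3 of these, Star, Fst and Amhr2, had values on all 4 untreated arrays. The rest were Nr5a1, with values on 3 untreated arrays, Tnfaip6, on 1, and Amh, empty on all 8. Without a value in milrinone were also 6 of 13 macrophage and blood, 7 of 12 stromal and endothelial and 1 of 14 oocyte marker genes. Of these, 1, 3 and 0 had values on all 4 untreated arrays. The oocyte gene, Sohlh1, was empty on all 8 arrays, as were Cd14, Fcer1g, Aif1 and Pecam1. The share over all genes was not counted. The part of granulosa and cumulus cells in the cathepsin values was not tested.

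**Figure D5:**
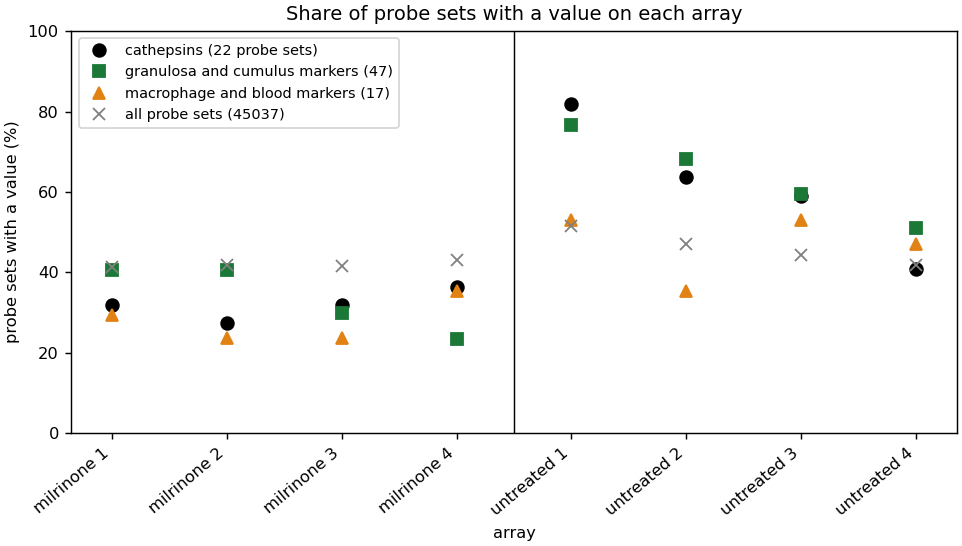
Percent of probe sets with a value on each array, for the 22 cathepsin probe sets, 47 granulosa and cumulus marker probe sets, 17 macrophage and blood marker probe sets and all 45037, with milrinone arrays left of the line. Cathepsins span 27.3% to 36.4% in milrinone and 40.9% to 81.8% in untreated samples, and all probe sets span 41.2% to 43.1% and 41.9% to 51.6%.

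Macrophage and blood markers were listed with 4 to 6 of 17 probe sets in milrinone and 6 to 9 in untreated samples, with summed intensities of 270.4 to 362 and 476 to 1776 and untreated 3 highest. Csf1r had 114, 95.9, 126 and 55.1 in milrinone samples, against 434, 111, 414 and 144 in untreated samples (-1.18, limma adjusted p = 0.472). Cd68 differed by -0.34 (-0.52 without untreated 1) and Adgre1 by -0.29, and of the 3 tested genes 0 were called (limma), with 1 at an unadjusted p under 0.05, beside 931 of all 9454. Cd14, Fcer1g and Aif1 were empty on all 8 arrays. Stromal and endothelial markers were listed with 3 to 4 of 20 probe sets in milrinone and 8 to 14 in untreated samples, with sums of 522 to 749 and 1224 to 10551. Col1a2 had no value in milrinone and 2550.3, 205, 343 and 243 on untreated 1 to 4. Dcn had none in milrinone and 1927, 159.9 and 335 on untreated 1 to 3. Col3a1 had 45.4 and 32.4 on milrinone 2 and 3, against 3414, 309, 473 and 197 on untreated 1 to 4. Kdr and Tek, of endothelial cells, differed by -0.15 (-0.06 without untreated 1) and 0.12 and were not called (limma), with 0 of 2 at an unadjusted p under 0.05. The part of these cells in the values of Ctss and the other members was not tested.

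Genes of the ovulatory programme to which Ctsl belongs in granulosa cells had few values on the arrays. Of 7 such genes on the array 0 had enough values to be tested. Edn2 had 43.3 on milrinone 3 alone and Snap25 7.48 on milrinone 4 alone, whereas Pgr, the progesterone receptor gene, had 74.4 on untreated 1 alone. Zbtb16 had 67.8, 57.3 and 66.1 on milrinone 2 to 4, against 81.9 and 70.4 on untreated 1 and 3. Adamts1, a protease gene regulated by the progesterone receptor, had no value in milrinone and 263, 89.2 and 84.8 on untreated 1, 2 and 4, and Ereg, a growth factor gene, had none in milrinone and 9.20 to 12.5 on untreated 1, 3 and 4. Oocyte markers were present throughout, with 16 of 17 probe sets listed on every array and summed intensities of 153663 to 164873 in milrinone and 150076 to 174118 in untreated samples. Of 13 tested oocyte genes 0 were called in the limma fit and 0 had an unadjusted p under 0.05, beside 12 and 931 of all 9454. Without untreated 1, 0 were called and 1 had an unadjusted p under 0.05, beside 793 of all 9454 for the latter. Gdf9 differed by -0.05 and Zp2 and Zp3, of the zona pellucida, by -0.10 and -0.07.

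The genes most like Ctsl over the 8 arrays were found by Pearson r on the log2 scale. Candidates were the 13305 probe sets of other genes with 1 gene symbol and values on all 8. Since the groups are separate for Ctsl, r serves only to rank likeness, and all points share the same arrays. The highest were Ivns1abp (0.986), Dhx9 (0.983), Tmem86a (0.981), Zeb1 (0.979) and Akr1cl (0.978). Akr1cl had 292, 371, 333 and 328 in milrinone samples, against 11401, 2162, 1677 and 1310.2 in untreated samples, with the array order of Ctsl among the untreated. The lowest were Slc43a3 (-0.991) and Yipf5 (-0.979). Slc43a3 had 547, 575, 590.0 and 556 in milrinone samples, against 372, 435, 448 and 472 in untreated samples. Among the family, r with Ctsl was 0.86 for Ctsd, 0.60 for Ctsb, and 0.19 and -0.55 for the Ctsh probe sets. From the top these were at ranks 189, 1193, 3179 and 9839 of 13305.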

How the data were processed

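The values are 1 intensity per probe set and array that the authors made from scanned arrays and deposited on a linear scale. How the scans were summarised and scaled, and why some cells are empty, is not given in the sources used here. The deposited scaling was kept, and log2(intensity + 16) was analysed with empty cells left out. In the platform annotation 34945 of the 45037 non-control probe sets had 1 gene symbol and 932 had several. Symbols were updated through Entrez identifiers to RefSeq (GRCm38.p6), which matched 34741. The fit took in the 16288 probe sets with 3 or more listed arrays per group. It used lmFit and eBayes with an intensity trend from limma 3.58.1 (R 4.3.3), with two-sided p-values adjusted by Benjamini-Hochberg over all of them, and a probe set is called at an adjusted p under 0.05. A gene in a list is represented by its brightest tested probe set. Precision is limited by the number of arrays: the median SE of a log2 difference was 0.17. The members and the lists were chosen with earlier results of these data known. Named are all members, per list the up to 3 tested genes with the smallest p and, for markers, the 3 brightest on the untreated arrays, Gja1, Grem1, Gdf9 and Zp3, with the 5 genes most and the 2 least like Ctsl. The values of Cst12, Ctso, Ptgs2 and the ovulatory genes were picked after they were seen. Plots were made in Python 3.11.15 with matplotlib 3.10.9. The fit was checked on data drawn with known changes. Alternatives were other pseudocounts, scalings, filters, weights and variance settings, a replicate block and leaving out each array.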

Additional observations from a re-analysis of the deposited data

How the results depend on the processing

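The Ctsl difference kept its direction under all 18 alternatives and its call under 13. With empty cells at 0 it was -3.90 (adjusted p = 0.0680) and 0 cathepsin probe sets were called. The Ctsl probe set had values on all 8 arrays, so that setting left its values and its difference as they were. Its adjusted p also depends on the other probe sets. Leaving out 1 array at a time gave -4.26 to -3.34 for Ctsl and 0 to 1 called cathepsin probe sets. The number of changed probe sets among all tested, 19 with the settings used, was 12 when only probe sets listed on all 8 arrays were tested, 5 with empty cells at 0 and 106 with array weights, and 9 to 69 when 1 array was left out, the extremes coming without milrinone 3 and without untreated 1. The causes were not tested, except that the filter to all 8 arrays tests fewer probe sets. Over all tested probe sets the median difference was 0.06 as deposited and -0.13 after quantile normalization, under which the tested Ctsa probe set was at -0.17. The brightest tested probe sets of Ctsb, Ctsd and Ctsh kept their direction and stayed uncalled in each of the 18 alternatives. Same-numbered samples did not deviate together, with correlations of 0.0333, -0.199, -0.0236 and -0.266 between their deviations. The labels do not say whether samples of the same number belong together, and with 4 arrays a group these correlations cannot exclude it. With a replicate block 13 probe sets were called, and Ctsl was at -3.90 (adjusted p = 0.0185). Empty cells, the rule for which is unknown, limit what can be said of Ctsc, Ctsf, Ctsk, Ctss and Ctsz.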
